A study of Mus musculus with 12 samples.

Results

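The genes described here encode, in the nucleus, the subunits of the mitochondrial respiratory chain and ATP synthase. They were picked by name from the protein-coding rows of the count table: symbols that begin with Ndufa, Ndufb, Ndufc, Ndufs or Ndufv and a digit, with Uqcr, with Cox4 to Cox8 or with Atp5, and Sdha to Sdhd, Cyc1 and Cycs. This gave 86 genes out of 49585 rows, of which 21973 are protein-coding. Complex I holds 35 of them, complex II 4, complex III 9, complex IV 20 and ATP synthase (complex V) 15, with 1 gene for cytochrome c. The other 2, Atp5s and Atp5sl, carry an Atp5 name but encode no subunit of the enzyme. In the deposited gene ontology columns 85 of the 86 had a mitochondrial term and 83 a term for the chain or for ATP synthase, and they lie on 19 chromosomes.

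The lungs, used whole, came from C57BL/6J mice with an MO4 melanoma, a mouse tumour line, growing under the skin. There were 4 groups of 3 libraries: mice of 22 months given anti-PD-1 and anti-IL-21 receptor antibodies (combination), mice of 22 months given anti-PD-1 alone (aged anti-PD-1), mice of 22 months given an isotype-matched rat antibody (aged control), and mice of 2 months given anti-PD-1 (young anti-PD-1). All antibodies went into the peritoneum, and the labels give days 3, 7 and 11 after tumour inoculation for anti-PD-1 and control antibody. Every animal bore a tumour, no young control group is in the files, and nothing in the labels ties a library to a separate animal, so a p-value here reflects how far these libraries vary, and that variation may be technical.

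Levels are read counts scaled to library size (CPM) after TMM, which sets libraries to a common level for most genes. Counted reads per library ran from 16021877 to 22058620. Of the 86 genes, 84 had enough counts to be tested among 18556 genes in all. Cox7b2 had at most 3 counts in a library and Cox8c at most 1, and both were left untested. A gene is said to be called, or to have risen or fallen, where its adjusted p was under 0.05 (quasi-likelihood test of edgeR with Benjamini-Hochberg adjustment over the 18556 genes), and fold changes are log2 values ± SE.

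The respiratory chain passes electrons from NADH and succinate through complexes I, II and III and cytochrome c to oxygen at complex IV, and complexes I, III and IV pump protons as they do so. ATP synthase makes ATP from the return of these protons. Most subunits come from nuclear genes and are imported, while the mitochondrial genome adds a small set of core subunits to every complex but complex II. Several complex IV subunits exist as a common form and a form restricted to certain tissues, and the lung is known for Cox4i2, a second form of the largest nuclear subunit.

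The chain genes were lower in the aged anti-PD-1 lungs than in the other 3 groups, by a small margin and in most complexes. Summed over the 86 genes, the level was 9292, 10881 and 8693 CPM in the combination libraries and 7429, 8022 and 8281 CPM in the aged anti-PD-1 libraries. It was 10903, 9634 and 8934 CPM in the aged control libraries and 9159, 8817 and 9410 CPM in the young anti-PD-1 libraries. The 3 aged anti-PD-1 libraries were thus the lowest of the 12 with no overlap, while the other 3 groups overlapped each other. Without TMM, as a share of all counted reads, the members took 0.893%, 0.942% and 0.823% in the combination libraries and 0.802%, 0.869% and 0.842% in the aged anti-PD-1 libraries, and here these groups overlap. On that scale the aged control libraries stood at 1.07%, 0.926% and 0.907% and the young libraries at 0.958%, 0.929% and 0.943%, all above the aged anti-PD-1 libraries. In bulk tissue, fewer cells of a type and less RNA per cell cannot be told apart.

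**Figure D1:**
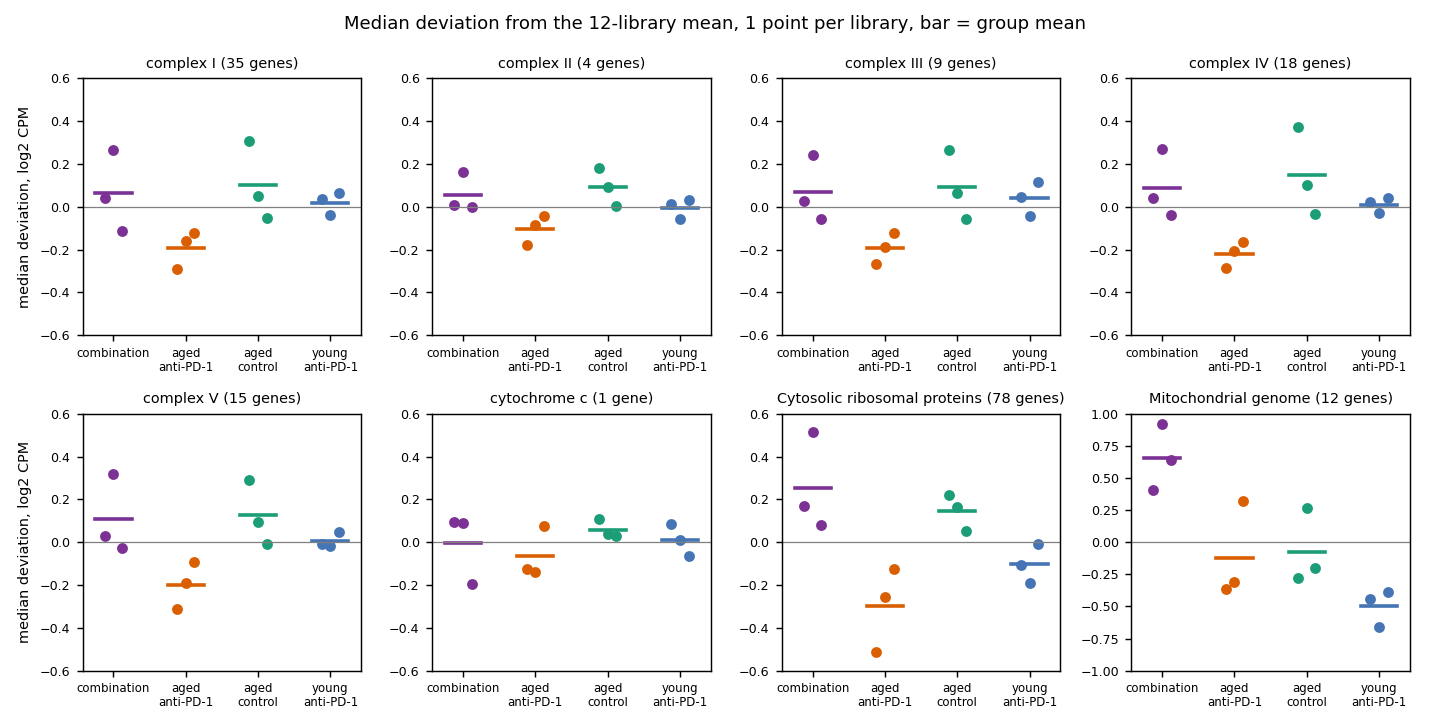
Each point is 1 library: the median, over the genes of a complex, of log2 CPM minus that gene's mean over the 12 libraries, with a bar at the group mean and the groups from combination to young anti-PD-1. In complexes I to V the 3 aged anti-PD-1 libraries lie below 0, while aged control library 1 (0.30 over all members) and combination library 2 (0.26) stand highest. The mitochondrial genome has its own y axis.

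By complex, the sum was 2663 ± 333 CPM for complex I in combination, 2235 ± 119 in aged anti-PD-1, 2739 ± 341 in aged control and 2599.7 ± 95.8 in young lungs (SD, n = 3 each). Complex IV summed to 2425 ± 328 CPM in combination, 1891 ± 111 in aged anti-PD-1, 2476 ± 325 in aged control and 2203 ± 102 in young lungs. ATP synthase summed to 2941 ± 323 CPM in combination, 2427 ± 162 in aged anti-PD-1, 2999.5 ± 208 in aged control and 2793 ± 61.0 in young lungs. The SDs of the combination and control groups are wider than those of the aged anti-PD-1 group in each of these. Complex II summed to 442 ± 27.3 CPM in combination, 405 ± 20.4 in aged anti-PD-1, 452 ± 25.8 in aged control and 432 ± 10.9 in young lungs.

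Gene by gene, 29 of the 84 tested members had all 3 aged anti-PD-1 libraries below all 9 other libraries, where 5.47% of all genes tested did, and no member had them above. These were 10 of 35 in complex I, 1 of 4 in complex II, 4 of 9 in complex III, 7 of 18 in complex IV and 7 of 15 in complex V. The median deviation of the members from their mean over the 12 libraries was -0.27, -0.18 and -0.12 in the aged anti-PD-1 libraries. It was 0.04, 0.26 and -0.08 in the combination, 0.30, 0.07 and -0.03 in the aged control and 0.03, -0.03 and 0.06 in the young libraries. Single libraries therefore weigh heavily in the aged control and combination groups, and the first 3 comparisons below all use the same aged anti-PD-1 libraries.

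In aged anti-PD-1 lungs set against those of aged controls, 15 of the 84 members fell and none rose, with 10.9% of all genes tested called (5.34% higher and 5.58% lower). The median log2 fold change of the members was -0.31, against -0.02 over all genes tested, and 79 of the 84 were negative. The libraries of the groups did not overlap, with aged anti-PD-1 below, for 53 members, where this held for 16.4% of all genes, and lay above for 2, where 16.1% of all genes did (32.5% in either direction). By complex, 4 genes fell in complex I (median of all its tested genes -0.28), 1 in complex II (-0.21), 1 in complex III (-0.29), 5 in complex IV (-0.36) and 4 in complex V (-0.30). Scaling by library totals left 7 of the 15 calls, all of them among the 15, and a fit of only these 2 groups left 2 (Atp5d and Uqcrfs1). Over all genes these settings called 559 of 18556 and 373 of 17948 lower. Without aged anti-PD-1 library 1, 2 or 3 there were 3, 2 and 4 members called lower, and without control library 1, 2 or 3 there were 5, 1 and 20. Over all genes 531, 434 and 353 were lower without those aged anti-PD-1 libraries. Without those control libraries 1063, 303 and 777 were, with 18877 to 18912 genes tested in these fits.

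Combination against aged anti-PD-1 lungs ran the other way under TMM. Of the 84 members 11 rose and none fell, with 9.02% of all genes called (4.67% higher and 4.35% lower), and the median of the members was 0.28 against -0.01 over all genes. The combination libraries lay above the aged anti-PD-1 libraries without overlap for 42 members, where this held for 15.7% of all genes, and below for 3, where 16.5% of all genes did (32.2% in either direction). Calls fell on 2 genes of complex I (median 0.25), 1 of complex II (0.14), 2 of complex III (0.31), 3 of complex IV (0.36) and 3 of complex V (0.28). With library totals as the scale 0 members rose and Ndufs1 alone was lower: the median over all genes moved to -0.21 and that of the members to 0.08, which is 0.28 above all genes. Over all genes 1.95% were higher on that scale, and 2677 of 18556 were lower. Leaving out aged anti-PD-1 library 1, 2 or 3 gave 0, 1 and 4 members higher, and without combination library 1, 2 or 3 there were 8, 0 and 17. Over all genes tested, 1.44%, 1.67% and 2.63% were higher without those aged anti-PD-1 libraries. Without those combination libraries the share was 3.93%, 0.671% and 3.50%.

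Both comparisons share the aged anti-PD-1 libraries, so their calls are not independent. The genes called in both were Ndufa6, Ndufb4, Sdhc, Uqcrfs1, Cox7a2, Cox7b, Atp5d, Atp5h and Atp5j2, that is 60.0% of the 15 and 81.8% of the 11. The same overlap over all genes is not given here, so these shares do not set the members apart from other genes. Combination against aged control lungs, which share no aged anti-PD-1 library, gave no call among the members with edgeR, DESeq2 or limma-voom. Over all genes edgeR called 0 genes there (0% of those tested), with 1228 at an unadjusted p under 0.05, and DESeq2 called 76. The median of the members was -0.03, no member had groups without overlap (9.71% of all genes did, 3.92% above and 5.78% below), and 1 member had an unadjusted p under 0.05. That gene was Cox6a2, the heart and skeletal muscle form of a complex IV subunit (-0.45 ± 0.21, edgeR adjusted p 0.753), followed by p in that order by Atp5sl, Ndufc2, Ndufb9 and Ndufv1.

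Aged against young anti-PD-1 lungs called 3 members, all lower, which is 3.57% of the 84 and under the 15.3% called over all genes (8.09% higher and 7.16% lower). The members' median was -0.20 against -0.01 over all genes, and 80 of the 84 were negative. Aged libraries lay below young ones without overlap for 55 members, where this held for 19.9% of all genes, and above for 1, where 19.7% of all genes did (39.6% in either direction). The 3 genes were Ndufv3, Ndufb11 and Uqcrfs1, and no member was called once any 1 of the 6 libraries was left out. Over all genes 449 to 1084 were lower in those fits, among 18877 to 18918 tested. A fit of only these 2 groups called 25 members lower and scaling without immunoglobulin, haemoglobin and mitochondrial genes called 0. Over all genes these settings called 1666 of 17958 and 1122 of 18556 lower.

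**Figure D2:**
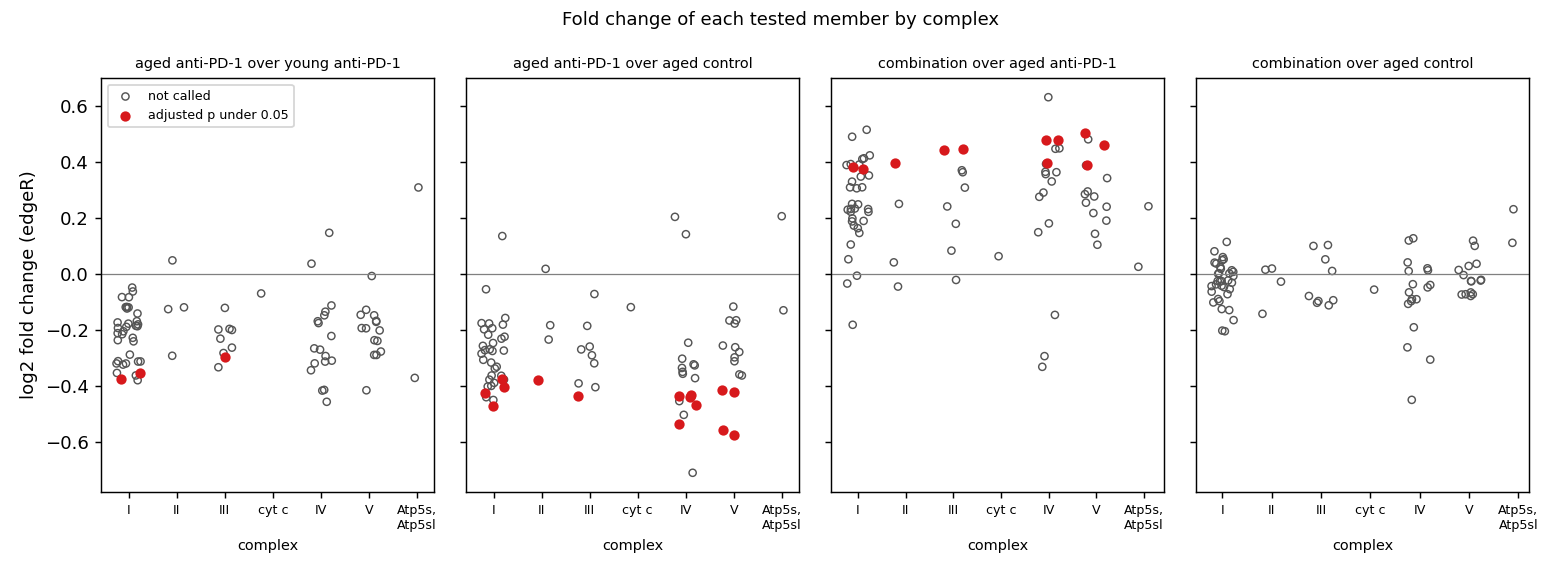
Each point is 1 tested member, placed by complex, with its log2 fold change from edgeR in the 4 comparisons; filled points have an adjusted p under 0.05. Points lie mostly below 0 for aged anti-PD-1 over young (median -0.20) and over aged control (-0.31), mostly above 0 for combination over aged anti-PD-1 (0.28, or 0.08 with library totals as the scale) and around 0 for combination over aged control (-0.03).

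Regulation of these genes is commonly described through NRF1, the ETS factor GABP (NRF2) and YY1, so their core motifs were looked up in the RefSeq promoter windows (GRCm38.p6, 250 bases before to 50 after the start). A window was found for 70 of the 86 members, 76 windows in all. The NRF1 motif, the palindrome in capitals in the Cox6a1 and Ndufa11 stretches below, searched like the others on both strands, stood in 5 member windows (6.58%) and in 0.971% of all 32851 windows. The ETS motif CCGGAAG stood in 16 (21.1%) and in 8.86% of all windows, and the YY1 motif AAGATGGC in 12 (15.8%) and in 2.75%. No motif contains another, and each was counted by itself. Of the 13 windows that belong to members lower in aged anti-PD-1 than in control lungs, 0 held the NRF1, 2 the ETS and 1 the YY1 motif. A match is only a match of letters, and its absence says nothing about the factor.

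The stretches below show 150 bases upstream of the gene, 5′ to 3′ on the gene's strand, with motifs in capitals. Uqcrfs1 and Cox7a2 are shown because they were called in both comparisons and hold none of the motifs in this stretch. Atp5h and Atp5j2, also called in both, do hold a motif in their windows (ETS and YY1) and are not shown. Atp5e and Uqcrh were called in 1 comparison and hold the ETS motif on the other strand. Cox6a1 and Ndufa11 hold the NRF1 motif and were not called. The Cox6a1 window also holds the ETS motif, outside the stretch shown. The stretches are picked examples and do not relate motifs to calls.
Uqcrfs1, chr13:30545363-30545512, minus strand: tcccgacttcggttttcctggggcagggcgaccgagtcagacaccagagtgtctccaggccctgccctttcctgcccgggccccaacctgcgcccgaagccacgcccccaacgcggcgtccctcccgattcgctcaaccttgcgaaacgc
Cox7a2, chr9:79759879-79760028, minus strand: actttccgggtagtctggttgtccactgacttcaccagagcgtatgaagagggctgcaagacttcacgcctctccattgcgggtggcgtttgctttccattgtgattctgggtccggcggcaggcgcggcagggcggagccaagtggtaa
Atp5e, chr2:174464106-174464255, minus strand: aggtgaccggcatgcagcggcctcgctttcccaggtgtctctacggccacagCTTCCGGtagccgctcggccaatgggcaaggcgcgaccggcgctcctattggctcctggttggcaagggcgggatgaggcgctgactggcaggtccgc
Uqcrh, chr4:116075072-116075221, minus strand: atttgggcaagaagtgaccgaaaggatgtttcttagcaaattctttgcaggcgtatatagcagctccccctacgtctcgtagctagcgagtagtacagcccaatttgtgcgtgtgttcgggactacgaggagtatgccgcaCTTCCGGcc
Cox6a1, chr5:115348982-115349131, minus strand: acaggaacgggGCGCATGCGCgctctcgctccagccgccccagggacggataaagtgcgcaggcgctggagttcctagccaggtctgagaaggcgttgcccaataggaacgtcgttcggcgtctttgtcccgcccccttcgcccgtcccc
Ndufa11, chr17:56717612-56717761, plus strand: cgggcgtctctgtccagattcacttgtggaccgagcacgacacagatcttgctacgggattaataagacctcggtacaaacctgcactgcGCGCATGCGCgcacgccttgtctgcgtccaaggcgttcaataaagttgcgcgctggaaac

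Complex I oxidises NADH, and its genes fall into catalytic core subunits and accessory subunits. None of the core subunits named here was called with TMM and the fit of all 4 groups. Ndufs1 was called lower in combination against anti-PD-1 with library totals as the scale, and Ndufs8 was called lower against young lungs by DESeq2 and by the fit of those 2 groups, and lower against control without control library 3. Ndufs1, which carries iron-sulfur clusters of the NADH-oxidising module, had 57.9, 52.1 and 54.7 CPM in combination lungs and 60.3, 63.2 and 63.4 CPM in aged anti-PD-1 lungs. In the other groups it had 58.8, 56.1 and 55.4 CPM in aged control and 67.2, 66.4 and 61.6 CPM in young lungs. Unlike most members, Ndufs1 was thus higher in every aged anti-PD-1 library than in any combination or control library, and with TMM the differences were not called (0.13 ± 0.08 against control and -0.18 ± 0.08 for combination against anti-PD-1, edgeR adjusted p 0.301 and 0.180). The core genes Ndufs3, Ndufs7, Ndufs8, Ndufv1 and Ndufv2 had fold changes of -0.27 to -0.18 against control and 0.05 to 0.23 for combination against anti-PD-1.

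The calls in complex I were accessory subunits. Ndufa6, a small subunit with a LYR motif at the matrix arm (ENSMUSG00000022450, chromosome 15, 82350139 to 82354291, mm10), had 123, 138 and 116 CPM in combination and 90.3, 99.4 and 99.4 CPM in aged anti-PD-1 lungs. In aged control lungs it had 131, 133 and 118 CPM and in young lungs 111, 109 and 115 CPM. The aged anti-PD-1 libraries were below all others, and Ndufa6 fell by 0.40 ± 0.09 against control (edgeR adjusted p 0.0195) and rose by 0.38 ± 0.09 in combination against anti-PD-1 (0.0259). Ndufb4, a subunit of the membrane arm, moved alike, at -0.37 ± 0.11 and 0.37 ± 0.11 (edgeR adjusted p 0.0398 and 0.0445). Of the 50-base words in its longest coding transcript 37.0% occur in other genes too, on either strand, so its reads may be shared.

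Ndufb11 and Ndufa1 are membrane-arm subunits encoded on the X chromosome. Ndufb11 had 142, 157 and 127 CPM in combination, 111, 117 and 110.2 CPM in aged anti-PD-1, 171, 150.3 and 134 CPM in aged control and 145, 137 and 150.4 CPM in young lungs. It was lower in aged anti-PD-1 than in control lungs (-0.43 ± 0.11, edgeR adjusted p 0.0258) and than in young lungs (-0.36 ± 0.11, edgeR adjusted p 0.0405), with no overlap in either case. Its rise in combination lungs was not called (0.33 ± 0.11, edgeR adjusted p 0.0714). Ndufa1 averaged 62.5 ± 11.3 CPM in combination, 49.1 ± 3.53 in aged anti-PD-1, 68.2 ± 7.71 in aged control and 63.2 ± 4.73 in young lungs (SD, n = 3 each), and fell against control by 0.47 ± 0.13 (edgeR adjusted p 0.0335). Ndufv3, an accessory subunit next to the NADH-oxidising module, was called only against young lungs, at -0.37 ± 0.12 (edgeR adjusted p 0.0427), with 51.3, 54.9 and 58.5 CPM in aged and 77.5, 70.6 and 65.4 CPM in young anti-PD-1 lungs.

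Complex II, or succinate dehydrogenase, also belongs to the tricarboxylic acid cycle and has no subunit from the mitochondrial genome. Its 4 genes did not move as 1. Sdhc, a membrane anchor that holds the haem with Sdhd (ENSMUSG00000058076, chromosome 1, 171127165 to 171150603, mm10), had 96.5, 114 and 94.6 CPM in combination, 81.3, 75.6 and 74.6 CPM in aged anti-PD-1, 108, 98.9 and 93.9 CPM in aged control and 92.0, 95.5 and 96.1 CPM in young lungs. It fell against control by 0.38 ± 0.10 (edgeR adjusted p 0.0259) and rose in combination against anti-PD-1 by 0.40 ± 0.10 (0.0234). Sdha, the flavoprotein that oxidises succinate, stood at 152, 156 and 159 CPM in combination, 146, 165 and 171 CPM in aged anti-PD-1, 163, 156 and 157 CPM in aged control and 160.3, 151 and 155 CPM in young lungs. Its groups overlap throughout, with fold changes between -0.05 and 0.05. Sdhb, the iron-sulfur subunit, and Sdhd were not called, at -0.18 ± 0.11 and -0.23 ± 0.10 against control.

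Complex III hands electrons from ubiquinol to cytochrome c. Uqcrfs1, the Rieske iron-sulfur protein at its catalytic centre (ENSMUSG00000038462, chromosome 13, 30540308 to 30545362, mm10), was the only member called in 3 comparisons. It had 114, 120.0 and 104 CPM in combination, 80.4, 84.5 and 83.7 CPM in aged anti-PD-1, 116, 114 and 106 CPM in aged control and 98.1, 94.6 and 113 CPM in young lungs. The aged anti-PD-1 libraries lie close together and under the other 9. Uqcrfs1 fell by 0.44 ± 0.10 against control (edgeR adjusted p 0.0150) and by 0.30 ± 0.10 against young lungs (0.0486), and rose by 0.45 ± 0.10 in combination against anti-PD-1 (0.0150). Against control it was called in all 10 other settings and in 5 of 6 fits that leave out 1 library (lost without control library 2, edgeR adjusted p 0.0539). In combination against anti-PD-1 it was called in 9 of 10 settings, the exception being library totals (0.25, edgeR adjusted p 0.0736), and in 4 of 6 such fits, being lost without aged anti-PD-1 library 1 or combination library 2 (edgeR adjusted p up to 0.0748).

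Uqcrh, the acidic hinge protein that helps cytochrome c1 meet cytochrome c, was the other complex III gene to rise in combination lungs, at 229, 287 and 212 CPM against 160.0, 194 and 181 CPM in aged anti-PD-1 lungs (0.44 ± 0.12, edgeR adjusted p 0.0397). It was 259.8, 221 and 222 CPM in aged control lungs, and this difference was just short of a call (-0.39 ± 0.12, edgeR adjusted p 0.0568). Cyc1, cytochrome c1, had -0.19 ± 0.11 against control and 0.08 ± 0.11 in combination against anti-PD-1. Uqcrc2, a core protein of the matrix side, had -0.07 ± 0.09 and -0.02 ± 0.09, and Uqcrc1, its partner, -0.32 ± 0.11 and 0.24 ± 0.11. Cytochrome c itself, Cycs, was called nowhere: it averaged 68.7 ± 7.68 CPM in combination, 65.9 ± 5.56 in aged anti-PD-1, 71.5 ± 2.13 in aged control and 69.1 ± 3.64 in young lungs (SD, n = 3 each).

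Complex IV reduces oxygen. Its nuclear subunits surround a core made in the mitochondrion, and 5 of them fell in aged anti-PD-1 against control lungs: Cox4i1, Cox5a, Cox6c, Cox7a2 and Cox7b. Cox7a2, the common form of subunit VIIa (ENSMUSG00000032330, chromosome 9, 79755361 to 79759878, mm10), had 129, 149 and 119 CPM in combination, 94.3, 94.3 and 96.4 CPM in aged anti-PD-1, 152, 128 and 115 CPM in aged control and 116, 113 and 125 CPM in young lungs. With the aged anti-PD-1 libraries below all others, it fell by 0.47 ± 0.11 against control (edgeR adjusted p 0.0220) and rose by 0.48 ± 0.11 in combination against anti-PD-1 (0.0219). Cox7b, which is needed for assembly of the complex, did likewise (-0.43 ± 0.11 and 0.39 ± 0.11, edgeR adjusted p 0.0227 and 0.0342). Cox7a2l, a relative of Cox7a2, rose in combination lungs, with 273, 338 and 261 CPM against 175, 218 and 235 CPM in aged anti-PD-1 lungs (0.48 ± 0.12, edgeR adjusted p 0.0316). It has been described as joining complexes III and IV into supercomplexes, and whether it does so in this mouse strain was not tested.

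Cox4i1, the common form of the largest nuclear subunit, had the highest level per kb of transcript of all members, 501 CPM per kb over the 12 libraries. Its level was 395, 501 and 363 CPM in combination, 272, 327 and 325 CPM in aged anti-PD-1, 514, 437 and 389 CPM in aged control and 365, 322 and 390.4 CPM in young lungs. It fell against control by 0.54 ± 0.14 (edgeR adjusted p 0.0312), and no other comparison called it. Cox5a fell against control by 0.44 ± 0.13 (edgeR adjusted p 0.0464) but stood lowest in young lungs, at 68.1, 72.9 and 75.7 CPM against 75.9, 75.6 and 88.3 CPM in aged anti-PD-1 lungs. With Cox8b, it is 1 of 2 complex IV genes with a positive fold change against young lungs (for Cox5a 0.15 ± 0.13, edgeR adjusted p 0.498), and opposite-strand transcripts overlap its exons. Ndufa4, named for complex I but a subunit of complex IV, was not called (-0.33 ± 0.12 against control), nor were Cox5b, Cox6a1, Cox6b1 and Cox8a (-0.37 to -0.25 against control).

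ATP synthase has a catalytic head, a stalk that couples it to a ring in the membrane, and a peripheral stator. The alpha and beta subunits of the head, Atp5a1 and Atp5b, were among the members with the highest CPM and were not called with edgeR. Atp5a1 had its aged anti-PD-1 libraries below all others. DESeq2 called Atp5a1 lower in aged anti-PD-1 against control and higher in combination against anti-PD-1. Atp5b averaged 489 ± 27.9 CPM in combination, 455 ± 19.2 in aged anti-PD-1, 515 ± 10.7 in aged control and 511 ± 9.88 in young lungs (SD, n = 3 each), with -0.18 ± 0.09 against control (edgeR adjusted p 0.223). Atp5d, the delta subunit of the central stalk (ENSMUSG00000003072, chromosome 10, 80138632 to 80145818, mm10), had 135, 181 and 134 CPM in combination, 99.96, 103 and 115 CPM in aged anti-PD-1, 185, 148 and 141 CPM in aged control and 138, 132 and 154 CPM in young lungs. The aged anti-PD-1 libraries lay under all others, and Atp5d fell by 0.58 ± 0.14 against control (edgeR adjusted p 0.0201) and rose by 0.50 ± 0.14 in combination against anti-PD-1 (0.0353). Against control it was called in all 10 other settings, and lost without aged anti-PD-1 library 1 or 2 (edgeR adjusted p up to 0.0641).

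Atp5e, the epsilon subunit of the central stalk, fell by 0.56 ± 0.16 against control (edgeR adjusted p 0.0361), with 106, 125 and 152 CPM in aged anti-PD-1 and 212, 187 and 166 CPM in aged control lungs. In combination lungs it had 150.2, 219 and 165 CPM, which overlaps aged anti-PD-1 (0.48 ± 0.16, edgeR adjusted p 0.0685). Atp5j2, subunit f of the membrane part, fell against control (-0.42 ± 0.13, edgeR adjusted p 0.0465) and rose in combination against anti-PD-1 (0.46 ± 0.13, edgeR adjusted p 0.0383). Atp5h, subunit d of the stator, did so too (-0.42 ± 0.12 and 0.39 ± 0.12, edgeR adjusted p 0.0352 and 0.0495), but 47.9% of its 50-base words occur in other genes. Over all tested members 27 share more than 10% of such words with another gene and 57 do not, and the calls divide into 6 and 9 against control and 3 and 8 for combination against anti-PD-1. Atp5s and Atp5sl were not called; Atp5sl was the only member with aged anti-PD-1 libraries all above the young ones (21.1, 19.5 and 19.0 against 16.8, 16.1 and 15.2 CPM, 0.31 ± 0.12, edgeR adjusted p 0.0972).

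Levels per kb of annotated principal transcript, which depend on that annotation, differ widely within a complex. Over the 12 libraries complex I ran from Ndufb2 at 3.12 to Ndufa7 at 224 CPM per kb (median 71.8), complex II from Sdhc at 29.4 to Sdhb at 77.4 and complex III from Cyc1 at 44.7 to Uqcrh at 388. Complex IV ran from Ndufa4l2 at 12.01 to Cox4i1 at 501 and complex V from Atp5g1 at 7.01 to Atp5e at 379. Ndufb2, an accessory subunit, and Atp5g1, one of several genes for the membrane ring subunit, have long annotated principal transcripts and also low CPM, with group means of 10.95 to 15.6 and 28.3 to 34.8 CPM. Medians over tested members were 160.4 CPM per kb in complex IV and 176 in complex V, above those of complexes I to III.

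Complex IV forms that are restricted to certain tissues made up a minor part of each pair and were called in no comparison, although another tool or setting called Cox7a1, Cox6b2 or Cox4i2 in places named below. Cox4i2, the lung form (ENSMUSG00000009876, chromosome 2, 152754173 to 152765037, mm10), had 35.9, 34.9 and 25.5 CPM in combination, 38.3, 41.5 and 38.4 CPM in aged anti-PD-1, 51.8, 19.97 and 30.8 CPM in aged control and 51.5, 43.1 and 55.4 CPM in young lungs. The aged control libraries span nearly the range of the other groups. Against control the fold change was 0.20 ± 0.26 (edgeR adjusted p 0.639), but it was called higher without control library 1 and turned to -0.07 without control library 2; a fit of the aged and young anti-PD-1 groups alone called it lower. Per kb it made up 7.43 ± 1.07% of the Cox4 pair in combination, 11.8 ± 0.917% in aged anti-PD-1, 7.23 ± 2.51% in aged control and 12.7 ± 0.359% in young lungs (SD, n = 3 each). All aged anti-PD-1 shares (11.0% to 12.8%) lay above all combination (6.78% to 8.66%) and control (4.55% to 9.51%) shares; these shares were not tested.

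**Figure D3:**
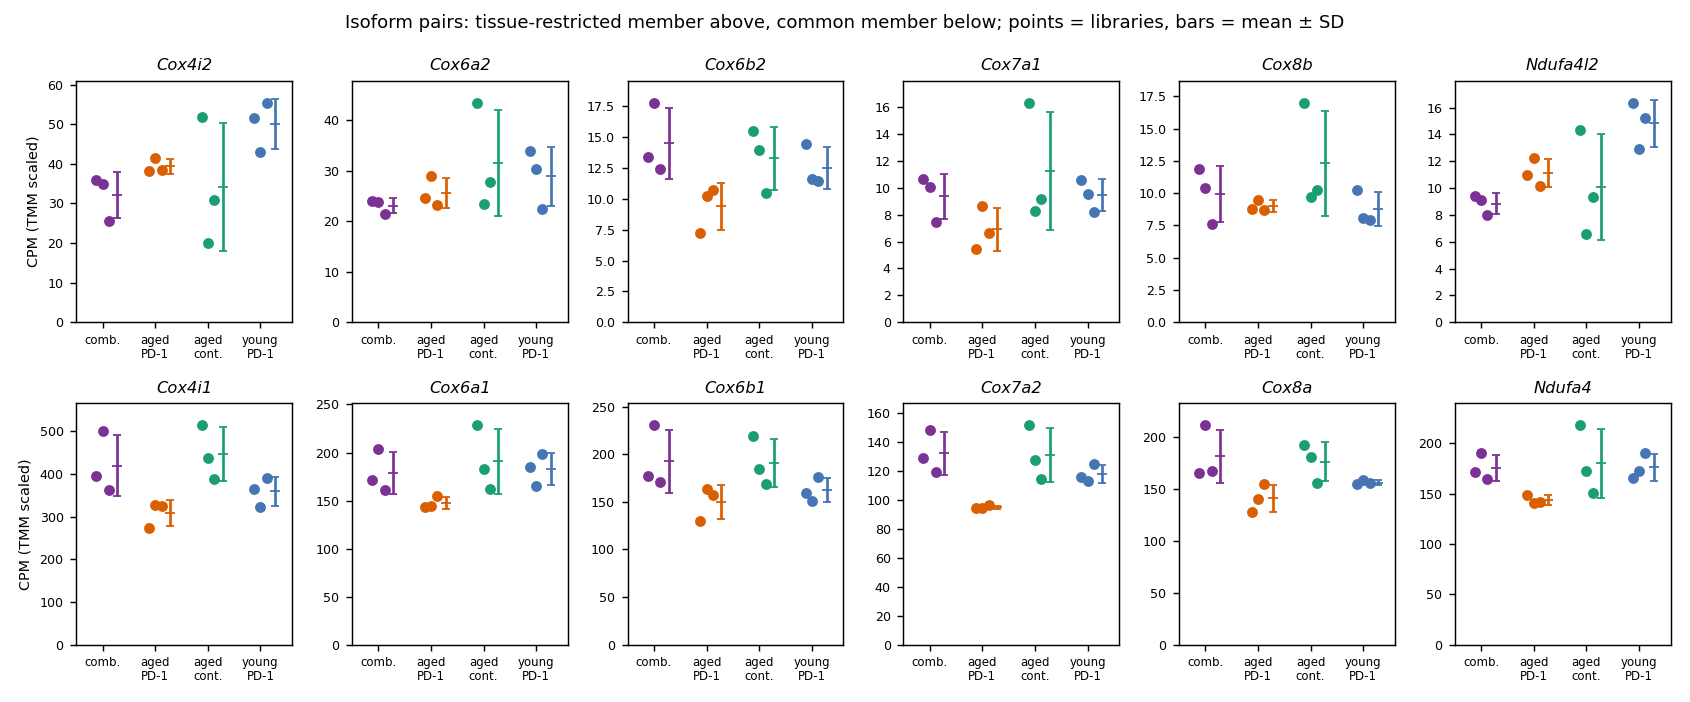
Level in CPM of each tissue-restricted complex IV gene (above) and its common partner (below), with 1 point per library and bars for mean ± SD of 3 libraries, from combination on the left to young anti-PD-1 on the right. Cox4i1 is lowest in aged anti-PD-1 lungs whereas Cox4i2 is not, and aged control library 1 is highest for Cox6a2, Cox7a1 and Cox8b.

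Ndufa4l2, a hypoxia-inducible relative of Ndufa4 known in pericytes, had a like pattern, at 3.19 ± 0.245% of its pair in combination, 4.82 ± 0.498% in aged anti-PD-1, 3.48 ± 0.925% in aged control and 5.23 ± 0.744% in young lungs (SD, n = 3 each). Its fold change was -0.33 ± 0.22 in combination against anti-PD-1 (edgeR adjusted p 0.362). The pericyte marker Rgs5 was 17.2 CPM in combination, 28.2 in aged anti-PD-1, 14.5 in aged control and 6.09 in young lungs on average. It rose against control (0.96 ± 0.15, edgeR adjusted p 0.00451) and against young lungs and fell in combination against anti-PD-1. Other pericyte markers did not all follow it: Kcnj8 had 6.72 to 8.65 CPM in aged anti-PD-1 and 9.35 to 12.6 CPM in aged control libraries, and Pdgfrb and Higd1b had lower means in aged anti-PD-1 than in young lungs (34.1 against 43.4 and 19.1 against 24.2 CPM), none of them called. Of the 12 genes of the pericyte and smooth muscle list 2 rose and 3 fell against control (median 0.13), 2 rose and 2 fell in combination against anti-PD-1 (-0.11) and 2 rose and 3 fell against young lungs (-0.25). The contractile genes Acta2, Cnn1 and Tagln were the 3 lower ones in both cases, and the list summed to 995 to 1107 CPM in combination, 838 to 1020 in aged anti-PD-1, 1068 to 1441 in aged control and 1002 to 1371 in young libraries. The part of these cells in the Cox4i2 and Ndufa4l2 values was not tested.

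Cox6a2, Cox7a1 and Cox8b are the heart and skeletal muscle forms. All were highest in aged control library 1, with 43.5, 16.3 and 17.0 CPM. Cox7a1 had -0.71 ± 0.25 against control (edgeR adjusted p 0.0831) and was called by DESeq2 alone of the 10 alternatives. The 12 cardiac muscle markers, none at 0 in any library, summed to 613 to 864 CPM in combination, 660 to 1047 in aged anti-PD-1, 800 to 1441 in aged control and 532 to 851 in young libraries, and aged control library 1 was again the highest. The 8 skeletal muscle markers summed to 9.11 to 18.05 CPM with 1 to 3 of them at 0 in each library, and Ucp1, the defining gene of brown fat, reached at most 0.548 CPM. The part of heart muscle, which lines the pulmonary veins of mice, in these 3 genes was not tested. The testis form Cox6b2 had 13.4, 17.8 and 12.4 CPM in combination against 7.22, 10.3 and 10.7 CPM in aged anti-PD-1 lungs, without overlap (0.63 ± 0.20, edgeR adjusted p 0.0602; called by DESeq2 and without the filter on low counts), while germ cell markers summed to at most 0.45 CPM.

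Members with short transcripts moved more. Over the 84 tested members, which share their libraries, Spearman's rho between principal transcript length and log2 fold change was 0.46 for aged anti-PD-1 against control and -0.35 for combination against anti-PD-1. It was 0.11 against young lungs and 0.01 for combination against control. The 42 members up to the median of 863 bases had a median fold change of -0.36 against control and the 42 longer ones -0.26. For combination against anti-PD-1 the values were 0.34 and 0.23. In another fit a trend on GC content and on the length of all annotated exons of a gene was removed within each library. That length can be far from the principal transcript, at 6443 against 544 bases for Atp5l. A trend on principal transcript length itself was not removed. In that fit 8 members were lower against control (6 of them among the 15) and 7 higher in combination against anti-PD-1 (5 of the 11). Atp5d, Atp5l, Ndufa6, Sdhc and Uqcrfs1 were in both. Over all 18510 genes of that fit 912 were lower against control and 815 higher in combination against anti-PD-1. The members' median relative to all genes was -0.19 and 0.18 there, where the main fit had -0.29 and 0.29.

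**Figure D4:**
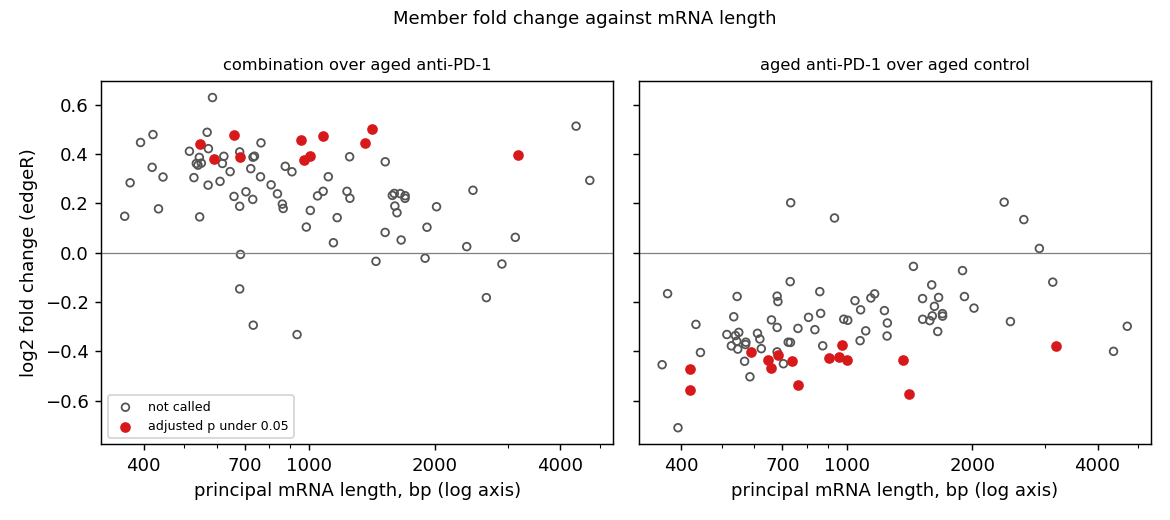
Log2 fold change of each tested member (y axis) against the length of its annotated principal transcript in bases (x axis, log scale), for combination over aged anti-PD-1 on the left and aged anti-PD-1 over aged control on the right; filled points have an adjusted p under 0.05. Shorter members lie farther from 0, with a rho of -0.35 on the left and 0.46 on the right over 84 members.

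The mitochondrially encoded subunits moved with the nuclear ones in combination against aged anti-PD-1 lungs, where all 12 tested were positive, while in aged anti-PD-1 lungs their median was -0.02 against control and 0.38 against young lungs, where the nuclear members had -0.31 and -0.20. Their summed level was 112858, 159481 and 133273 CPM in combination and 67040, 69765 and 107355 CPM in aged anti-PD-1 lungs. It was 65348, 98560 and 71179 CPM in aged control and 66809, 54775 and 66532 CPM in young lungs. The ratio of mitochondrial to nuclear transcripts, which no scaling alters, was 14.0 ± 1.68 in combination, 10.2 ± 2.37 in aged anti-PD-1, 8.06 ± 2.12 in aged control and 6.86 ± 0.571 in young lungs (SD, n = 3 each). Of the 12 tested mitochondrial genes 7 rose in combination against anti-PD-1, among them mt-Nd1 (0.74 ± 0.22, edgeR adjusted p 0.0483) and mt-Cytb (0.78 ± 0.22, edgeR adjusted p 0.0434), which encode subunits of complexes I and III. Against aged control, where edgeR called none of the 12, 10 had an unadjusted p under 0.05 and their median was 0.74, while that of the nuclear members was -0.03. Mitochondrially encoded genes took 11.5% to 14.9% of counted reads in combination, 7.88% to 11.9% in aged anti-PD-1, 7.32% to 10.4% in aged control and 6.05% to 7.22% in young libraries.

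**Figure D5:**
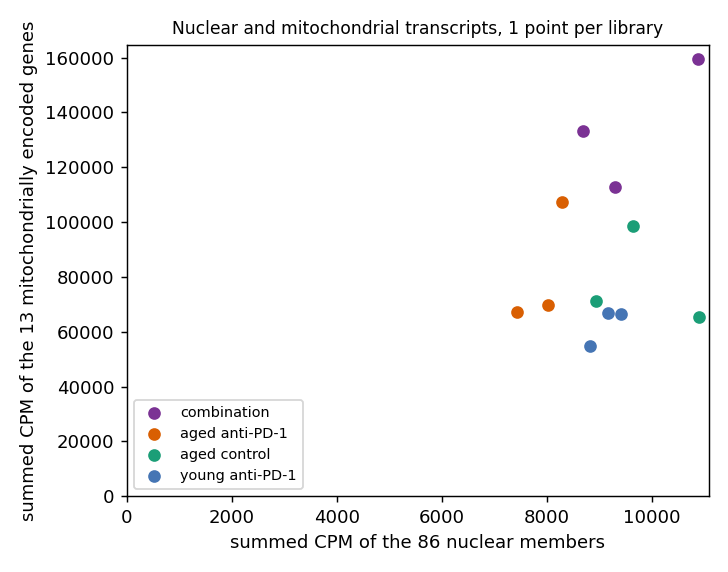
Summed CPM of the 13 mitochondrially encoded subunit genes (y axis) against summed CPM of the 86 nuclear members (x axis), 1 point per library, coloured by group. The combination libraries are highest on the y axis, at 112858 CPM or more, and the aged anti-PD-1 libraries lowest on the x axis, at 8281 CPM or less.

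Ribosomal protein genes, short and abundant like many members, shifted the same way against control and in combination against anti-PD-1. These lists were added after the data were seen. Of 78 cytosolic ribosomal protein genes 32 fell against control (median -0.45), where 5.58% of all genes did. In combination against anti-PD-1 60 rose (median 0.56), where 4.67% of all genes did. Against young lungs 1 of the 78 fell (median -0.18), where 7.16% of all genes did. In combination against control no cytosolic gene was called and 74 were positive (median 0.11), while the chain members had a median of -0.03. Of 77 mitochondrial ribosomal protein genes 9 fell against control (median -0.18) and 8 rose in combination against anti-PD-1 (median 0.18). The share of the chain's change that these genes have in common with it was not tested.

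Genes that build, regulate or surround the chain were called in shares from 0% to 33.3% of a list, where 10.9% of all genes were called against control, 9.02% in combination against anti-PD-1 and 15.3% against young lungs. Of 15 tested complex I assembly factors, Ndufaf8 fell against control (-0.48 ± 0.14, edgeR adjusted p 0.0375) and rose in combination against anti-PD-1 (0.57 ± 0.14, edgeR adjusted p 0.0219), Tmem126b rose against control (0.45 ± 0.14, edgeR adjusted p 0.0478) and Ndufaf2 fell against young lungs (-0.51 ± 0.13, edgeR adjusted p 0.0153). The medians of this list were -0.06 against control and -0.09 for combination against anti-PD-1. Of 33 tested assembly factors for complexes II to V the only call was Pet100, a complex IV assembly factor, higher in combination against anti-PD-1 (0.49 ± 0.13, edgeR adjusted p 0.0323). The structural subunits thus had larger medians than their assembly factors, a difference that was not tested.

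Among 18 tested regulators of mitochondrial genes, the coactivator Ppargc1a, its partners Nrf1, Gabpa and Esrra, and Tfam, which packages mitochondrial DNA, were called in no comparison. Tfam had 31.2 CPM in combination, 27.9 in aged anti-PD-1, 28.7 in aged control and 28.4 in young lungs on average. Myc, a broad activator of growth genes, fell against control (-0.90 ± 0.15, edgeR adjusted p 0.00581) and rose in combination against anti-PD-1 (0.72 ± 0.15, edgeR adjusted p 0.0140). Polrmt, the mitochondrial RNA polymerase, fell in combination against anti-PD-1 (-0.65 ± 0.15, edgeR adjusted p 0.0201), with 8.18 against 12.8 CPM. Esrrg, an oestrogen-related receptor, rose against young lungs (1.08 ± 0.24, edgeR adjusted p 0.0105).

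In the tricarboxylic acid cycle 1 of 16 genes fell against control and 2 against young lungs, with medians of -0.05 and -0.10. Suclg1, a subunit of succinyl-CoA ligase, was lower in both, at -0.43 ± 0.09 and -0.53 ± 0.09 (edgeR adjusted p 0.0124 and 0.00259), and Idh3a fell against young lungs. Of 9 redox defence genes Gpx1, Gpx4 and Prdx5, which remove peroxides, fell against control, and Prdx5 rose in combination against anti-PD-1 (0.46 ± 0.12, edgeR adjusted p 0.0299). Chchd6, a cristae organiser, fell against control (-0.69 ± 0.15, edgeR adjusted p 0.0139) and rose in combination against anti-PD-1 (0.61 ± 0.15, edgeR adjusted p 0.0239). Opa1, which fuses inner membranes, rose against control (0.35 ± 0.09, edgeR adjusted p 0.0276).

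Markers of other cells moved beside these results. The 9 type 2 alveolar genes, of which 8 fell against young lungs and none was called in the other comparisons (1 and 0 at an unadjusted p under 0.05 against control and in combination against anti-PD-1), summed to 22035 to 29168 CPM in combination, 20069 to 22968 in aged anti-PD-1, 22067 to 24736 in aged control and 28307 to 34872 in young libraries. Ciliated airway genes, 3 of 7 lower against control and 2 of 7 higher in combination against anti-PD-1 (6 of 7 positive), summed to 676 to 920 CPM in combination, 525 to 696 in aged anti-PD-1, 873 to 1036 in aged control and 969.8 to 1058 in young libraries. Erythroid genes, 5 of 7 higher in combination against anti-PD-1, summed to 19032 to 46861 CPM in combination, 9967 to 13135 in aged anti-PD-1, 12733 to 20703 in aged control and 12376 to 15512 in young libraries, and combination library 2 was the highest of its group for them and for the chain members alike. Leukocyte genes, 5 of 7 higher against young lungs, summed to 600.2 to 678 CPM in combination, 549 to 660.1 in aged anti-PD-1, 426 to 696 in aged control and 346 to 354 in young libraries. The part of these cells in the members' values was not tested.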

How the data were processed

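Whole-lung poly(A) RNA was sequenced with a directional NEBNext kit, per the labels' protocols. The authors deposited raw counts per gene for 12 libraries; bcl2fastq 1.8.4, Trimmomatic, HISAT2, featureCounts 1.6.3 and mm10 are named in the submitters' processing notes, and their options and strand setting are not given in the sources used here.

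Genes passing edgeR's filterByExpr (minimum count 10, minimum total 15) were fitted with edgeR 4.0.16 (R 4.3.3; TMM, robust quasi-likelihood, 4 group means, 12 libraries, 8 residual degrees of freedom), and p-values were adjusted by Benjamini-Hochberg over 18556 genes. The fit was tested on simulated data. DESeq2 1.42.0 and limma-voom (limma 3.58.1) were alternatives. Lengths and shared 50-base words came from the GENCODE M21 annotation, promoters from RefSeq. Members and lists were chosen with earlier results of these data known. Members were named by a rule: isoforms and catalytic cores, the largest called changes per comparison (at most 8 in a direction, or 5 by p where fewer than 5 were called) and the level extremes of each complex. Genes of the ribosome were listed after the data were seen. Counts of replicate libraries differed beyond sampling noise (chi-square per degree of freedom 9.26 to 46.1), so all 12 were kept.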

Additional observations from a re-analysis of the deposited data

How the results depend on the processing

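The fold changes and calls above come from small differences between 3 libraries a group, and the counts of called members moved with the processing. For aged anti-PD-1 against young lungs, where 3 members were lower, library totals gave 1, scaling without immunoglobulin, haemoglobin and mitochondrial genes 0, a mean CPM of at least 1 gave 5, DESeq2 gave 8, the fit of 2 groups 25 and removal of the length and GC trend 7 lower and 1 higher. Over all genes 1328 were lower in the main fit and, in that order, 930, 1122, 1298, 1595, 1666 and 1447, with 1556 higher in the last. For aged anti-PD-1 against control lungs, where 15 were lower, library totals gave 7, DESeq2 27, the fit of 2 groups 2 and the length and GC trend 8. Over all genes 1035 were lower in the main fit and, in that order, 559, 1540, 373 and 912. For combination against aged anti-PD-1 lungs, where 11 were higher, library totals gave 0 higher and 1 lower with a median of 0.0766, DESeq2 28, the fit of 2 groups 5 and the length and GC trend 7. The cause of these moves was not tested.

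Replicate numbers did not pair the libraries (median correlation of deviations -0.0239, -0.213 to 0.200 over 18 pairs); with the replicate number as a block 1 member was lower against young, 11 lower against control and 5 higher in combination against anti-PD-1.

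Leaving out 1 library at a time gave 0 members lower against young lungs, 1 to 20 lower and 0 to 1 higher against control, and 0 to 17 higher in combination against anti-PD-1. Over all genes 449 to 1084 were lower against young lungs, and 303 to 1063 lower and 304 to 932 higher against control. In combination against anti-PD-1 0.671% to 3.93% of all genes were higher. Combination against control gave 0 members throughout, and 0 to 13 genes over all. The members' median kept its sign in the first 3 comparisons, at -0.26 to -0.17, -0.39 to -0.20 and 0.18 to 0.34, and ran from -0.11 to 0.07 in combination against control. Against control, Cox4i2 ranged from -0.0689 to 0.63 and Ndufa4l2 from -0.0907 to 0.48, both turning negative without control library 2.

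With library totals as the scale, sums are given in the order combination, aged anti-PD-1, aged control and young lungs. Summed CPM over all members was 8867, 8389, 9672 and 9444. By complex it was 2454, 2371, 2696 and 2690 for complex I and 408, 429, 445 and 447 for complex II. For complex III it was 971, 913, 1045 and 1041. Complex IV had 2233, 2005, 2437 and 2279, and complex V 2711, 2573, 2954 and 2890.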
